A study of Mus musculus with 12 samples.

Results

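The genes described here are 10 genes of the mTOR pathway in mouse NIH 3T3 fibroblasts, out of 16475 probe sets measured: Deptor, Ddit4, Mtor, Rptor, Rictor, Mlst8, Akt1s1, Tsc1, Tsc2 and Rheb. Each is read by 1 probe set. They were chosen by name, and Deptor and Ddit4 also on their measured rise with RheoSwitch ligand (RSL) in the inducible clone, so values of that comparison are given for all 10 as a description with no test. mTOR is a serine/threonine kinase that joins growth factor, energy and amino acid signals to protein synthesis, and it works in complex 1, defined by Raptor, and complex 2, defined by Rictor. The small GTPase Rheb switches complex 1 on, the Tsc1-Tsc2 complex switches Rheb off, and Deptor, PRAS40 (the product of Akt1s1) and REDD1 (the product of Ddit4) are brakes on the pathway. In fibroblasts complex 1 activity follows serum and nutrients and is largely set at the level of protein, so a transcript level is not a measure of it.

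The study placed IER2, an immediate-early gene product, under the RheoSwitch system, in which RSL turns on the transfected gene. The groups were 3T3-ind-IER2 #11 cells, labelled clone 11 of NIH 3T3-RheoSwitch-Ier2 and called inducible cells here, and parental NIH 3T3 cells, each given 200 nM RSL or a matching volume of DMSO and harvested 24 h later, with 3 arrays per group and 12 in all. The inducible line is 1 clone that carries the plasmids of the switch, and the parental cells are labelled as NIH 3T3 alone, so the plasmids, the cloning and the cells themselves cannot be told apart where the 2 lines are compared; the labels give 1 growth medium, with both selection drugs, for all samples. Values are deposited log2 levels of Affymetrix arrays, on which levels of different genes cannot be set against each other.

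In the inducible cells the level of Ier2 itself was 9.02 ± 0.06 under DMSO and 8.55 ± 0.10 with RSL (SD, n = 3 each), lower where the label would have it higher. Whether its probes read the transfected copy is not known, and each direction given for the inducible cells rests on the labels as they stand. Arrays of the same group correlated at 0.9981 to 0.9992. All 9 fibroblast markers (Col1a1, Col1a2, Col3a1, Thy1, Pdgfra, Pdgfrb, Vim, Fn1 and S100a4) lay above the array median on every array, and their mean level was between 10.66 and 10.93. Of the macrophage markers, 4 of 5 lay below the median on every array, all but Csf1r, with a mean between 6.33 and 6.45, and all 4 epithelial and all 4 endothelial markers lay below it. Of the 10 genes, Rptor alone lay below the array median on all 12 arrays, above the first quartile on each, so its small differences are the closest to the dim end of the arrays.

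Ddit4 is one of the pair on which the description turns, and Sesn1, which encodes the mTOR brake sestrin 1, followed it across the arrays. The 250 bases before the annotated start of both genes are therefore shown, from RefSeq on GRCm38.p6, 5′ to 3′ on the gene's own strand, with matches to the motifs searched in capitals. Ddit4 is at chr10:59951771-59952020 on the minus strand, and the 2 starts of Sesn1 are at chr10:41810324-41810573 and chr10:41887189-41887438 on the plus strand.
Ddit4: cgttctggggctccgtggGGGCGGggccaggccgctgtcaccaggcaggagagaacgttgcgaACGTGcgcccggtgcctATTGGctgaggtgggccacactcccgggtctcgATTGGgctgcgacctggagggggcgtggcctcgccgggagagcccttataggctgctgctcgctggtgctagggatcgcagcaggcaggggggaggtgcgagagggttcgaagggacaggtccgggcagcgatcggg
Sesn1, first start: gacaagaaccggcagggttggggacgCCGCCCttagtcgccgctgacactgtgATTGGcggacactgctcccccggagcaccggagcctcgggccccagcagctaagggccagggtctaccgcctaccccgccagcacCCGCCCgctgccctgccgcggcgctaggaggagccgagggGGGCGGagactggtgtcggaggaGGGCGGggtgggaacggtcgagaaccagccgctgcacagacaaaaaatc
Sesn1, second start: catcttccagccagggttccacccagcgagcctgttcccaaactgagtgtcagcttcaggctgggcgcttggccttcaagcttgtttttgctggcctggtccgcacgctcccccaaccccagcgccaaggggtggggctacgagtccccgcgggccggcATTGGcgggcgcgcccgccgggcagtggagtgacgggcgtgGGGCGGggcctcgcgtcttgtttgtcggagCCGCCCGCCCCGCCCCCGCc
The motifs, searched on both strands, were CACGTG (the E-box), ACGTG (the core of hypoxia response elements, which also lies inside CACGTG), TGACGTCA (the cyclic AMP element), TGATGNAA (the composite element read by ATF4), GCGNGGGCG (the Egr element), GGGCGG (the GC box, which can overlap the Egr element) and CCAAT (the NF-Y box). In the Ddit4 window ACGTG lay 187 bases before the start, GGGCGG 232 bases before it, and CCAAT, on the other strand, 170 and 137 bases before it. Of 32851 RefSeq promoter windows of this length, ACGTG was present in 16.6%, GGGCGG in 32.7%, CCAAT in 33.8%, CACGTG in 6.02%, GCGNGGGCG in 4.7%, TGATGNAA in 3.45% and TGACGTCA in 1.55%. The first Sesn1 window held GGGCGG, in either orientation, 4 times and CCAAT 1 time, and the second held the same numbers of both and 1 match to GCGNGGGCG. A promoter was found for 9 of the 10 genes, all but Deptor. ACGTG was present in 3 of these 9, GGGCGG in 5, CCAAT in 3, and CACGTG and GCGNGGGCG in 1 each. A match is a run of letters and was not tested as a site.

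Deptor, the inhibitory subunit found in both mTOR complexes, was highest in inducible cells given RSL and lowest in parental cells. Under DMSO its log2 levels in inducible cells were 8.41, 8.42 and 8.41, and on the arrays labelled RSL they were 8.85, 8.92 and 8.76. The 3 arrays labelled RSL all lay above the 3 DMSO arrays, and the arrays labelled RSL were the more scattered, with an SD of 0.08 against 0.004. Each array averages over a culture, so a change in every cell and a change in some of the cells cannot be told apart. The log2 difference was 0.43 (standard error 0.04), a 1.35-fold higher level. It ranked 12 from the top of the 16475 probe sets by size, a rank that the choice of the gene for its rise already implies. In parental cells the levels were 7.86, 7.93 and 7.88 under DMSO and 7.78, 7.81 and 7.85 under RSL. The parental groups did not overlap either, with RSL lower, by a log2 difference of -0.08 (standard error 0.04, 95% confidence interval -0.16 to 0.002), which did not pass the test (adjusted p = 0.517 from limma).

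Ddit4, a stress-induced gene whose product restrains complex 1 through Tsc1-Tsc2, had the opposite order between the lines. Inducible cells read 9.80, 9.76 and 9.67 under DMSO and 9.91, 9.99 and 9.94 on the arrays labelled RSL. All 3 of the latter were above all 3 of the former, and the log2 difference was 0.20 (standard error 0.05), a 1.15-fold higher level. Parental cells read 10.14, 10.26 and 10.32 under DMSO and 10.13, 10.07 and 10.10 under RSL. The parental RSL arrays were all below the DMSO arrays, though the highest RSL array and the lowest DMSO array differed by less than either group's SD, and the log2 difference of -0.14 (standard error 0.05, 95% confidence interval -0.24 to -0.04) had an unadjusted p of 0.00731 and did not pass after adjustment (adjusted p = 0.376 from limma). With limma's array weights it did, at -0.18 (adjusted p = 0.0481).

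**Figure D1:**
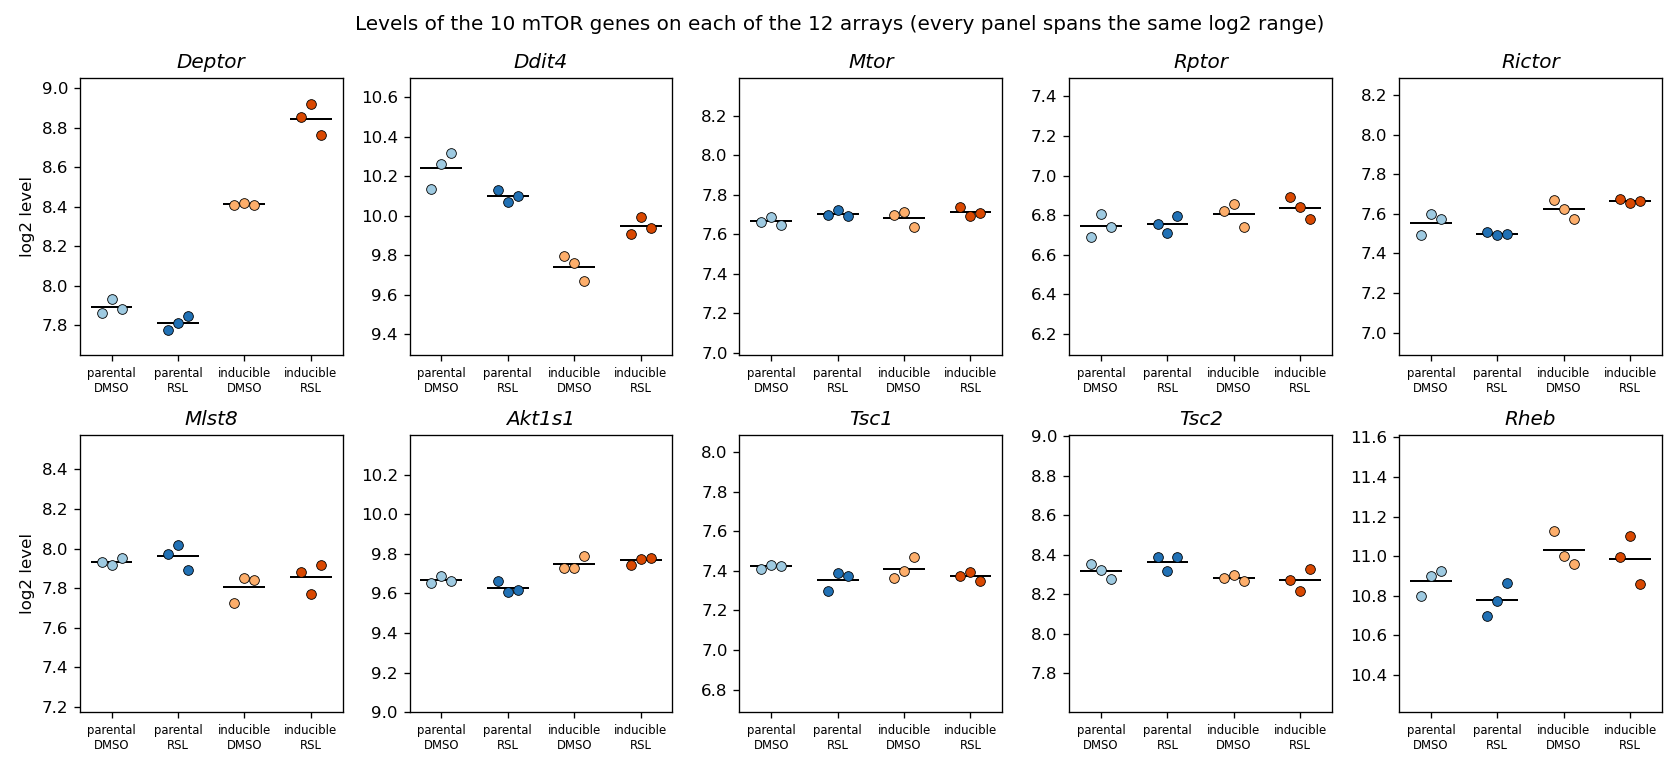
Log2 level (y axis) of the 10 genes on the 12 arrays, 1 panel per gene, in parental and inducible cells given DMSO or RSL (x axis). Each point is 1 array and each bar a group mean of 3 arrays; all panels span the same log2 range, and the largest separations between groups are those of Deptor and Ddit4, which range over 1.15 and 0.65 while the other 8 range over 0.10 to 0.43.

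In the order of its group means, Deptor ran from parental RSL (7.81 ± 0.04) and parental DMSO (7.89 ± 0.04) to inducible DMSO (8.41 ± 0.004) and inducible RSL (8.84 ± 0.08; SD, n = 3 each). Ddit4 ran from inducible DMSO (9.74 ± 0.06) and inducible RSL (9.95 ± 0.04) to parental RSL (10.10 ± 0.03) and parental DMSO (10.24 ± 0.09; SD, n = 3 each). In both orders the step between the 2 parental groups was the only one tested, and it did not pass. On the arrays labelled RSL, inducible cells were therefore above parental cells by 1.03 for Deptor, and below them by a log2 difference of -0.15 for Ddit4. In the clone the Ddit4 level on the arrays labelled RSL thus lay between those of its own DMSO arrays and of the parental arrays, whereas that of Deptor lay farther from the parental level than under DMSO. These orders were in part fixed by how the pair was chosen and carry no test.

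**Figure D2:**
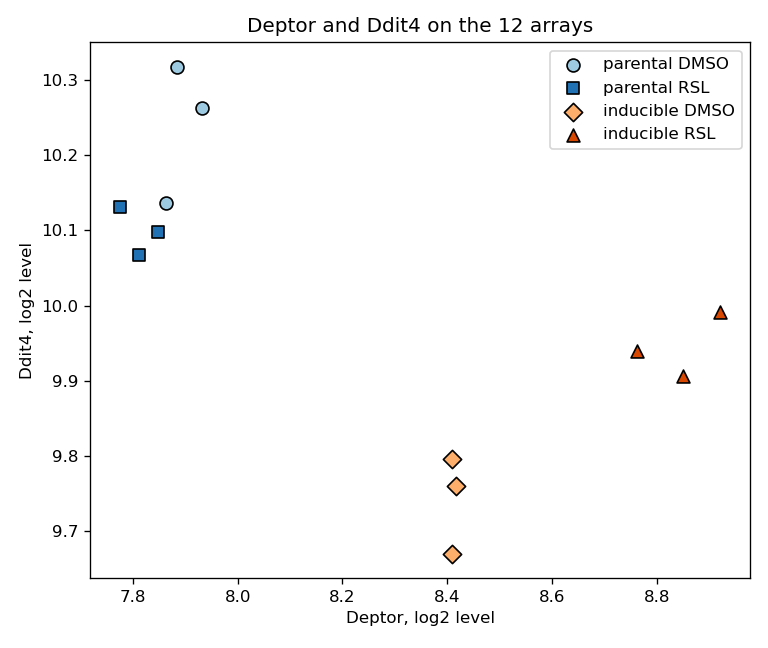
Log2 level of Deptor (x axis) against that of Ddit4 (y axis), 1 point per array, 3 arrays for each of the 4 groups. The parental arrays of both treatments lie near each other, at 7.78 to 7.93 for Deptor and 10.07 to 10.32 for Ddit4. The inducible arrays labelled RSL sit at 8.76 to 8.92 for Deptor, while Ddit4 is lowest, at 9.67 to 9.80, on the inducible DMSO arrays.

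The other 8 genes showed no such shift with RSL in inducible cells. Their log2 differences lay between -0.04 and 0.05, with standard errors of 0.03 to 0.06, and the arrays of the 2 treatments overlapped for all 8. Of the 10 genes 2 had groups that did not overlap, the 2 chosen for it, where 18.1% of all probe sets did. The median of the 8 was 0.02, beside 0.00 over all probe sets, of which 2.54% passed the test in this comparison. Their 95% confidence intervals reached from -0.17 to 0.15, the lower bound being that of Rheb.

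By role, the kinase gene Mtor read 7.70, 7.71 and 7.64 under DMSO and 7.74, 7.69 and 7.71 on the arrays labelled RSL in inducible cells, a log2 difference of 0.03 (standard error 0.03). Mlst8, the subunit that both complexes share, differed by 0.05 (standard error 0.05), and the genes of the defining subunits, Rptor and Rictor, by 0.03 and 0.04 (standard errors 0.04 and 0.04). Rictor was tighter under RSL than under DMSO in both lines, with SDs of 0.01 against 0.05 in inducible cells and 0.007 against 0.06 in parental cells, over 3 arrays each and not tested. Akt1s1, whose product PRAS40 is a complex 1 inhibitor like Deptor, differed by 0.02 (standard error 0.03). Tsc1 and Tsc2 differed by -0.04 and -0.01, and their target Rheb by -0.04, with the widest standard error of the 10, at 0.06. The 5 genes of brakes on complex 1, Deptor, Ddit4, Akt1s1, Tsc1 and Tsc2, were thus at 0.43, 0.20, 0.02, -0.04 and -0.01.

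In parental cells 0 of the 10 genes passed limma's test for RSL after adjustment, and 0.0303% of all probe sets did. Only Ddit4 had an unadjusted p under 0.05, 1 of 10 beside 9.71% of all probe sets. The methods name a one-way analysis of variance but do not say which groups entered it. Run here on only the 6 arrays compared, a one-way analysis gave 0 of 10 at a nominal p under 0.05, beside 1226 of all 16475 probe sets. The arrays did not overlap for 4 of the 10, beside 13.3% of all probe sets: Deptor, Ddit4 and Tsc1 were lower under RSL and Mtor higher. Tsc1, the scaffold of the Tsc1-Tsc2 complex, read 7.41, 7.43 and 7.43 under DMSO and 7.30, 7.39 and 7.37 under RSL, a log2 difference of -0.07 (standard error 0.04, adjusted p = 0.537). Mtor differed by 0.04 (adjusted p = 0.706), and the other 6 lay between -0.10 for Rheb and 0.05 for Tsc2.

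**Figure D3:**
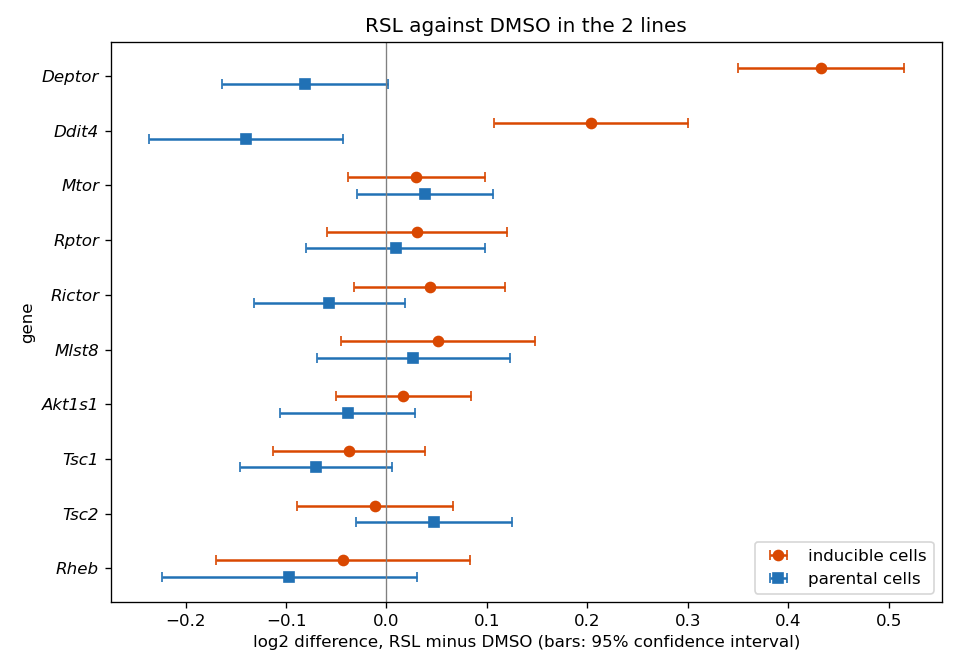
Log2 difference between RSL and DMSO (x axis) for the 10 genes (y axis) in inducible cells (circles) and parental cells (squares), with 95% confidence intervals from limma over 3 arrays per group. Deptor and Ddit4 lie at 0.43 and 0.20 in inducible cells, values that chose them, and at -0.08 and -0.14 in parental cells, while both series of the other 8 genes lie within 0.10 of 0.

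Deptor and Ddit4 were thus higher with RSL in one line and lower in the other, with groups apart in both lines. Across all probe sets, 0.425% had inducible arrays apart and higher with parental arrays apart and lower. Both genes were chosen for their rise in inducible cells, so this share does not measure how rare their pattern is. The RSL difference of inducible cells exceeded that of parental cells by 0.51 for Deptor (standard error 0.06) and 0.34 for Ddit4 (standard error 0.06), again without a test because the inducible arrays chose them. The same difference lay between -0.06 for Tsc2 and 0.10 for Rictor among the other 8.

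Under DMSO alone Deptor and Ddit4 stood farther apart between the 2 lines, in value, than between RSL and DMSO in either line. Deptor was 0.52 higher in inducible cells (standard error 0.04), a 1.43-fold level, and Ddit4 lower by a log2 difference of -0.50 (standard error 0.05), 1.41-fold; since the inducible DMSO arrays took part in choosing both, neither was tested. Those arrays also enter the RSL difference in inducible cells, so the values of the 2 comparisons are given side by side and not related. Of the other 8 genes 1 passed the test, beside 29.7% of all probe sets. Mlst8, the shared subunit, read 7.72, 7.85 and 7.84 in inducible cells and 7.93, 7.92 and 7.95 in parental cells. Its inducible arrays were all below the parental ones, with the first inducible array the lowest, and the log2 difference was -0.13 (standard error 0.05, adjusted p = 0.0430 from limma). This call rested on few arrays: without inducible DMSO replicate 1 the difference was -0.09 (adjusted p = 0.219), without parental DMSO replicate 1, 2 or 3 the adjusted p was 0.0752, 0.0663 or 0.121, and without replicate 1 of the inducible or of the parental RSL arrays, which enter only the shared spread, it was 0.0513 or 0.0537.

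Rheb and Akt1s1 came close to that threshold in the other direction. Rheb read 11.125, 11.002 and 10.959 in inducible cells and 10.80, 10.90 and 10.92 in parental cells under DMSO, 0.15 higher (standard error 0.06, adjusted p = 0.0647), with the lowest inducible array just above the highest parental one. The adjusted p fell to 0.0462, 0.0424 and 0.0345 without inducible DMSO replicate 3, inducible RSL replicate 2 and inducible RSL replicate 3. Akt1s1 read 9.73, 9.73 and 9.79 against 9.65, 9.69 and 9.66, 0.08 higher (standard error 0.03, adjusted p = 0.0630). In all, the lines did not overlap under DMSO for 5 of the 10 genes, Deptor, Akt1s1 and Rheb being higher in inducible cells and Ddit4 and Mlst8 lower, beside 40.2% of all probe sets. Rictor, at 0.07 (adjusted p = 0.175), Rptor at 0.06, Mtor at 0.02, Tsc1 at -0.01 and Tsc2 at -0.04 overlapped.

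**Figure D4:**
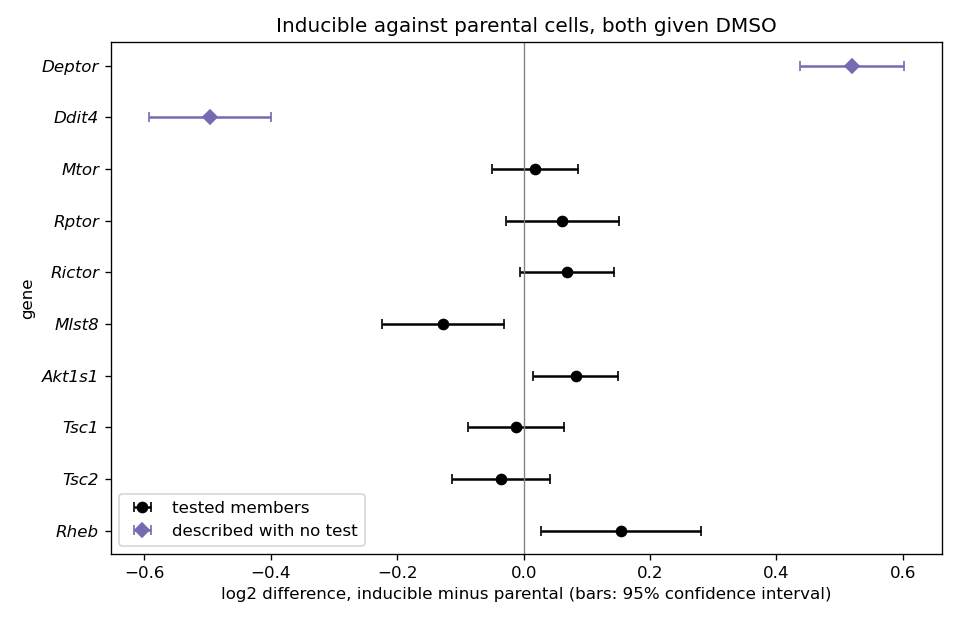
Log2 difference between inducible and parental cells under DMSO (x axis) for the 10 genes (y axis), with 95% confidence intervals from limma over 3 arrays per group; diamonds mark the 2 genes given without a test. Deptor, at 0.52, and Ddit4, at -0.50, lie on opposite sides, and the 8 tested genes lie between -0.13 for Mlst8 and 0.15 for Rheb.

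The wider pathway was read through a list of 97 further mTOR genes, of which 88 were analysed here. In inducible cells 4 of the 88 rose and 1 fell with RSL, 5.68% beside the 2.54% of all probe sets, and the median of the list was 0.01. Without inducible DMSO replicate 2 or inducible RSL replicate 1, 3 of the 88 passed. Over all 16475 probe sets 213 and 227 then passed, against 418 with all arrays. The one-way analysis on the 6 arrays compared gave 17 of the 88 at a nominal p under 0.05, beside 1913 of all probe sets. After adjustment it gave 0 of the 88 and 1 of all probe sets. Pdcd4, a brake on translation that the complex 1 arm marks for destruction, read 7.71, 7.75 and 7.71 under DMSO and 7.99, 8.06 and 7.94 on the arrays labelled RSL, without overlap, and rose by 0.27 (standard error 0.04, adjusted p = 0.00234 from limma). Lpin1, a phosphatidate phosphatase and complex 1 substrate, rose by 0.22 (adjusted p = 0.00245). Rhebl1, a close relative of Rheb, rose by 0.15 (adjusted p = 0.0198).

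Sesn1, of the amino acid sensing arm, read 7.54, 7.49 and 7.49 under DMSO and 7.72, 7.89 and 7.65 on the arrays labelled RSL, all 3 above, the second the highest. It rose by 0.24 (standard error 0.06, adjusted p = 0.0325 from limma). Its relatives Sesn2 and Sesn3, at -0.10 (adjusted p = 0.206) and 0.05 (adjusted p = 0.788), did not pass, nor did Ddit4l, the relative of Ddit4, at 0.01 (adjusted p = 0.983). Eif4ebp1, a repressor of cap-dependent translation and complex 1 substrate, fell by 0.16 (standard error 0.03, adjusted p = 0.00964), from 11.14, 11.13 and 11.11 to 10.97, 10.95 and 10.98, without overlap. Several of these calls ended when 1 array was left out. Sesn1 lost it without inducible DMSO replicate 1, 2 or 3 (adjusted p = 0.0802, 0.129 and 0.103) and without inducible RSL replicate 1 or 2 (0.0730 and 0.139); Rhebl1 without inducible DMSO replicate 2 or 3 (0.0784 and 0.0913) and inducible RSL replicate 1 or 2 (0.0959 and 0.0518); and Eif4ebp1 without inducible DMSO replicate 1 (0.0559).

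By role, 1 of 9 complex subunits and partners outside the 10 genes passed, 1 of 29 genes of amino acid sensing and the Rag GTPases, 0 of 22 of growth factor and energy input, 3 of 19 targets of the complexes and 0 of 9 that turn over Deptor or Ddit4 protein, such as the Deptor ubiquitin ligase genes Btrc and Fbxw11. At an unadjusted p under 0.05 the groups had, in this order, 1, 4, 5, 5 and 1 genes, 16 of 88 in all, beside 12.3% of all probe sets. In parental cells 0 of the 88 passed in limma, beside 0.0303% of all probe sets, with a median of -0.01. At an unadjusted p under 0.05 there were 11, beside 9.71% of all probe sets. The one-way analysis gave 6 at a nominal p, beside 1226 of all 16475 probe sets, and 0 after Benjamini-Hochberg adjustment. Of the called genes, Sesn1 was at -0.13 (adjusted p = 0.499 from limma) and Pdcd4 at -0.06 (adjusted p = 0.677) there. Rhebl1 was at 0.07 (adjusted p = 0.544 from limma), Lpin1 at 0.04 (0.728) and Eif4ebp1 at -0.03 (0.814), each in the same direction as in inducible cells.

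**Figure D5:**
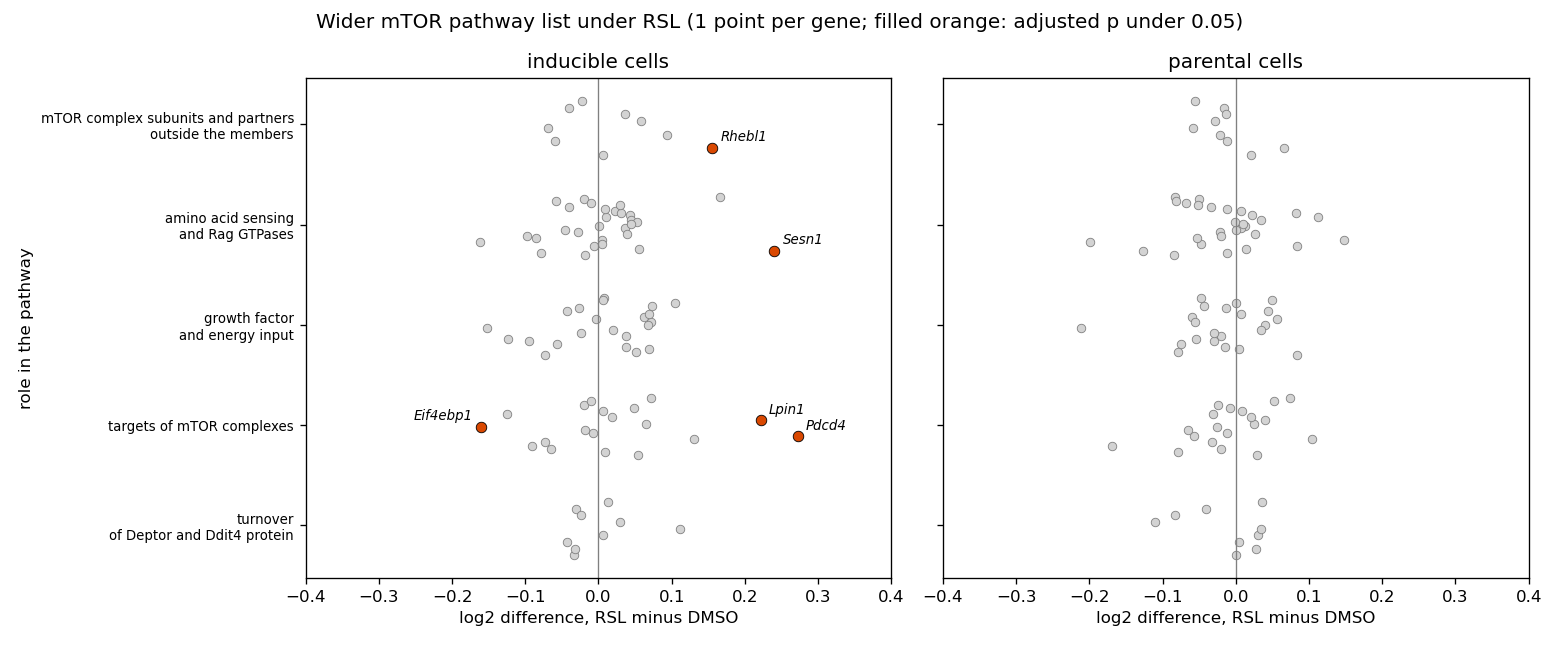
Log2 difference between RSL and DMSO (x axis) for the 88 named genes of the wider mTOR list, 1 point per gene, by role (y axis), in inducible cells (left) and parental cells (right); filled orange points passed at an adjusted p under 0.05. In inducible cells 4 genes passed above 0 and Eif4ebp1 below it; in parental cells 0 passed.

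Whether the RSL difference itself differed between the lines was tested next, and 2 of the 88 passed, 2.27% beside 0.662% of all probe sets. It was 0.37 for Sesn1 (standard error 0.08, adjusted p = 0.04997 from limma, just under the threshold) and 0.33 for Pdcd4 (standard error 0.06, adjusted p = 0.0175), higher in inducible cells for both. Sesn1 passed without inducible RSL replicate 3, parental DMSO replicate 1 or parental RSL replicate 3 and lost the call without inducible DMSO replicate 1, 2 or 3 (adjusted p = 0.0894, 0.131 and 0.108), inducible RSL replicate 1 or 2 (0.0832 and 0.112), parental DMSO replicate 2 or 3 (0.131 and 0.144) or parental RSL replicate 1 or 2 (0.133 and 0.130). Pdcd4 lost it without inducible DMSO replicate 1 (adjusted p = 0.0574), inducible RSL replicate 2 (0.0625), parental DMSO replicate 2 (0.0513) or parental RSL replicate 2 (0.0524).

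Between the lines under DMSO, 14 of the 88 were higher and 18 lower in inducible cells, 36.4% beside 29.7% of all probe sets, with a median of -0.02. Sesn3, a sestrin like Sesn1, was 0.38 higher and Sesn1 lower by a log2 difference of -0.51. Lower too were Phlpp1, a phosphatase of Akt, at -0.49, Pdcd4 at -0.36, Eif4b, a translation initiation factor, at -0.31 and Maf1, a repressor of RNA polymerase III that complex 1 inactivates, at -0.31. All 6 had an adjusted p of 8.36e-06 or less from limma.

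Ddit4 is known as a target of ATF4, of HIF, of the glucocorticoid receptor and of FOXO factors. A short list of genes, mostly targets, was read for each. The ATF4 list also holds Atf4 itself, the glucocorticoid list the receptor gene Nr3c1, and the FOXO list Foxo1, Foxo3 and Foxo4. Whether any of these factors set the Ddit4 level was not tested. In inducible cells given RSL, 2.54% of all probe sets passed and 12.3% had an unadjusted p under 0.05. Of the ATF4 list 0 of 11 genes passed, with 3 at an unadjusted p under 0.05 and a median of -0.01. Of the FOXO list 0 of 11 passed, with 4 unadjusted and a median of 0.04. The HIF list had 1 of 10 higher and 2 lower, with a median of -0.04. Adm, which encodes the peptide adrenomedullin, rose by 0.53 (adjusted p = 0.00403 from limma), while Ndrg1 fell by 0.33 (adjusted p = 0.000106) and the glucose transporter gene Slc2a1 by 0.19 (adjusted p = 0.0331). The Slc2a1 call ended without inducible DMSO replicate 1 or 2 (adjusted p = 0.145 and 0.155) or inducible RSL replicate 1 or 3 (0.182 and 0.0877), and with only the 6 arrays compared (0.0582). Of the glucocorticoid list 1 of 9 passed, the metallothionein gene Mt1, 0.27 higher (adjusted p = 0.00232). In the one-way analysis on the 6 arrays compared these 4 calls were lost after adjustment, at adjusted p-values from 0.0878 to 0.355.

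In parental cells 0 genes of the 4 lists passed in limma, with 1, 4, 2 and 0 at an unadjusted p under 0.05 in the ATF4, HIF, glucocorticoid and FOXO lists, beside 9.71% of all probe sets. Adm had the largest of these differences named here, at 0.28 (adjusted p = 0.371), and its replicate 1 under RSL, at 9.29, lay above the other two, at 8.85 and 8.77. The RSL difference differed between lines for Mt1, by 0.36 (adjusted p = 0.0108 from limma), and for Ndrg1, by -0.26 (adjusted p = 0.0363). These were 1 of 9 in the glucocorticoid list and 1 of 10 in the HIF list, beside 0.662% of all probe sets. In the ATF4 and FOXO lists 0 of 11 passed in each. Ndrg1 lost that call without inducible DMSO replicate 1 or 2 (adjusted p = 0.106 and 0.115), inducible RSL replicate 1 or 2 (0.104 and 0.0978), parental DMSO replicate 1 or 3 (0.0593 and 0.108) or parental RSL replicate 1 or 3 (0.0949 and 0.0852).

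Under DMSO the lines differed in 7 of 11 genes of the ATF4 list and 7 of 10 of the HIF list. They differed in 5 of 9 of the glucocorticoid list and 7 of 11 of the FOXO list, beside 29.7% of all probe sets. These counts include Atf4, Nr3c1, Foxo1 and Foxo4, which are not there as targets. In the ATF4 list 6 were higher in inducible cells. The largest were Trib3, a pseudokinase, by 0.39, Nupr1 by 0.34 and Chac1, which degrades glutathione, by 0.33 (each adjusted p 9.89e-05 or less from limma). The 1 lower gene was Atf4 itself, at -0.15. The other lists were mixed: 4 higher and 3 lower in the HIF list, 3 and 2 in the glucocorticoid list and 4 and 3 in the FOXO list. Their medians were 0.006, -0.009 and 0.01. Nr3c1, at -0.20, and Foxo4, at -0.15, are among the lower genes, and Foxo1, at 0.14, among the higher. Adm was 1.31 higher, Txnip, an inhibitor of glucose uptake, 0.68 higher and Gadd45a 0.39 higher, each with an adjusted p of 0.00262 or less from limma. In the one-way analysis on the 6 arrays compared Gadd45a did not pass, with a nominal p of 0.0765 and an adjusted p of 0.202.

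Over the 12 arrays, the genes whose log2 levels followed Deptor most closely were Aldh1a7, Tubg1, Adamts5, Ccl9 and Hacd4, with Pearson's r of 0.99 for the first and 0.98 for the last, among 725 probe sets that ranged over at least 0.5. Aldh1a7, an aldehyde dehydrogenase, read 8.56 ± 0.04 and 9.21 ± 0.01 in inducible cells under DMSO and RSL and 7.56 ± 0.10 and 7.56 ± 0.12 in parental cells (SD, n = 3 each). Running most opposite were Ptges, a prostaglandin E synthase, Niban2 and Hbegf, a ligand of the EGF receptor, each at -0.99.

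Ddit4 was followed by Sirt1, a deacetylase, at 0.97, Sesn1 at 0.96, Pxylp1 at 0.96, and Pdgfrb, a platelet-derived growth factor receptor, and Ankrd44, both at 0.95. Sirt1 had the same order of groups, from 6.97 ± 0.01 in inducible DMSO and 7.14 ± 0.08 in inducible RSL to 7.29 ± 0.03 in parental RSL and 7.42 ± 0.13 in parental DMSO (SD, n = 3 each). Opposite to it were Itgb7 at -0.95, Errfi1, an inhibitor of EGF receptors, at -0.94 and Bcl2l15 at -0.93. The 12 points fall into 4 groups, so these values mostly describe likeness of the 4 group means, and they are given with no test.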

How the data were processed

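RNA of the 12 samples was hybridised to Affymetrix Mm430_2.0 arrays. The authors deposited log2 values per gene for all arrays, after RMA background correction and quantile normalization, with probes grouped by a Custom CDF with Entrez-based definitions. That the values are log2 was inferred from their range. The labels name Trizol for RNA extraction and the methods peqGOLD RNAPure. Samples were grouped by their labels, and 0 columns belonged to other samples.

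Of 16539 probe sets, 64 hybridization controls were left out. The other 16475 were tested with no filter, 15780 of them with 1 gene symbol; 695 are not named, and some of these are not reported here. The 4 group means were estimated from all 12 arrays in 1 limma 3.58.1 model (R 4.3.3; 8 residual degrees of freedom, moderated variances). The Benjamini-Hochberg adjustment ran over all 16475, and an adjusted p under 0.05 made a call. The labels and the methods call the arrays biological replicates but do not say whether cultures were grown separately; the p-values measure only how these samples vary, which may be in part technical. Precision is limited by 3 arrays per group, for which an exact permutation test gives a p of at least 0.1. The script was tested on simulated data.

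The 10 genes and all lists were chosen with earlier results of these data known. Named were the 10 genes, per comparison up to the 12 largest called differences in the wider list and the 4 target lists, and for Deptor and Ddit4 the 5 most and 3 least like genes. Sesn2, Sesn3, Ddit4l, Btrc, Fbxw11, Atf4, Nr3c1, Foxo1, Foxo3 and Foxo4 were named after their values were seen. The Sesn1 promoter was shown for its likeness to Ddit4. The alternatives tried were the replicate number as a block, leaving out the 40% of probe sets with the lowest mean, an intensity trend, limma's array weights, centring each array on its median, repeated quantile normalization, only the 6 arrays compared, a one-way analysis of variance (nominal and adjusted) and leaving out each array. The one-way analysis used only the 6 arrays of each comparison. The methods name such an analysis without giving its groups, so its results may differ from theirs.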

Additional observations from a re-analysis of the deposited data

Results flagged for a closer look

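The RSL difference of Deptor and Ddit4 went opposite ways in the 2 lines: every inducible array labelled RSL lay above, and every parental RSL array below, the DMSO arrays of its line. The difference between lines was 0.51 for Deptor and 0.34 for Ddit4; it was not tested, because the inducible arrays chose both genes. Neither parental difference passed limma's test (-0.08, adjusted p = 0.517, and -0.14, adjusted p = 0.376), and for Ddit4 the nearest parental arrays, at 10.131 under RSL and 10.136 under DMSO, almost met.

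For 4 genes of the lists the difference between the lines passed limma's interaction test, beside 0.662% of all probe sets. They were 2 of 88 in the wider list, 1 of 10 in the HIF list and 1 of 9 in the glucocorticoid list. In the ATF4 and FOXO lists 0 of 11 passed in each. Sesn1 differed by 0.37 (0.24 in inducible and -0.13 in parental cells, adjusted p = 0.04997), Pdcd4 by 0.33 (0.27 and -0.06, adjusted p = 0.0175) and Mt1 by 0.36 (0.27 and -0.08, adjusted p = 0.0108). Ndrg1 differed by -0.26 (-0.33 and -0.07, adjusted p = 0.0363). Under DMSO the inducible cells already differed from the parental cells, at -0.51 for Sesn1, -0.36 for Pdcd4, -0.12 for Mt1 and 0.25 for Ndrg1. Each is opposite in sign to the RSL difference in inducible cells. The DMSO arrays enter both comparisons, so the values are given side by side and not related. With each of the 12 arrays left out in turn, the call was lost 9 times for Sesn1, 8 times for Ndrg1 and 4 times for Pdcd4. Sesn1 also lost it with the replicate block (0.0838) and with medians subtracted (0.0602), and Ndrg1 with the block (0.0844).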

How the results depend on the processing

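Of 1366 values recomputed under the alternatives, 1256 kept their direction and their side of the threshold or, where untested, moved by less than the spread between arrays. Of the rest, 82 lost a call or were lower counts of calls, 23 gained one or were higher counts, and 5 tested values changed sign, each under 0.02 in size. Changes of sign in untested values were not counted. With 1 array left out, Rptor, Tsc2 and Rheb in inducible cells reached -0.0028, 0.017 and 0.019, each across 0. Mtor, Rptor, Mlst8 and Rheb also changed sign in the difference between lines. Deptor and Ddit4 kept their differences in inducible cells, at 0.39 to 0.47 and 0.17 to 0.23 with any 1 array left out. The inducible arrays chose both genes, so these ranges are a description and no support for the rise. In the wider list, the RSL calls in inducible cells numbered 17 by the one-way analysis at a nominal p, 0 after its adjustment, and 3 to 6 with 1 array left out. In parental cells, array weights gave 1 call among the 10 genes and 1 in the wider list, and the one-way analysis at a nominal p gave 6 in the wider list. The difference between lines was called for 1 gene of the wider list with the replicate block, 5 with array weights, 1 with medians subtracted and 0 to 2 with 1 array left out. Between lines under DMSO, the calls among the 8 genes tested were 0 with the replicate block, 3 with the filter, 2 with the intensity trend, array weights, the 6 arrays alone or the one-way analysis at a nominal p, 0 after its adjustment, and 0 to 2 with 1 array left out. With quantile normalization repeated, Rptor in parental cells was at -0.0056. With 1 array left out, it ran from -0.018 to 0.039, Mlst8 in parental cells from -0.0028 to 0.062 and Tsc1 between lines under DMSO from -0.042 to 0.013. Over all probe sets, array weights raised the calls from 418 to 736 in inducible cells, from 5 to 106 in parental cells and from 109 to 375 for the difference; the one-way analysis gave 1913, 1226 and 5514 at a nominal p in inducible cells, in parental cells and between lines, and 1, 0 and 3410 after adjustment. The causes were not tested.

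The replicate numbers do not pair the samples: of 18 same-numbered pairs, 4 correlated above 0.1 in their deviations, from -0.30 to 0.22, and 5 correlated best with their own number. With the replicate block the adjusted p was 0.0663 for Mlst8 between lines, 0.0518 for Sesn1 in inducible cells, and 0.0838 for Sesn1 and 0.0844 for Ndrg1 in the difference.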
